A study of Mus musculus with 10 samples.

Results

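The AP-1 transcription factors described here are 8 genes, the Fos family members Fos, Fosb, Fosl1 and Fosl2, the Jun family members Jun, Junb and Jund, and the partner gene Atf3. They were taken by gene symbol from the platform's gene table, and the list was drawn up with earlier results of these data known. All 8 were found, with 12 probe sets, among 18193 genes measured. Messenger RNA levels came from 10 Affymetrix arrays of mouse embryonic fibroblasts at the onset of reprogramming, in 5 groups of 2 arrays. The cells of every group were secondary inducible fibroblasts of a 129/SvJ x C57/B6 hybrid strain, which carry doxycycline-inducible transgenes for Oct4, Sox2, Klf4 and Myc. The control cells were not induced and spent 96 h in medium with 0.5% serum. The induced cells spent 96 h with doxycycline, labelled as 2 ug/ul, in medium with 15% serum, and form 4 cohorts by their average number of divisions: 0, 1, 2, or at least 3, the last called here the most divided cohort. The means of separating the cohorts were not given in the sources used here, and the titles of the most divided cohort name only the induction. The controls therefore carry the transgenes too, and differ from each cohort in both doxycycline and serum.

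AP-1 is a dimer of basic leucine zipper proteins that binds a short palindrome known as the TPA response element. Fos proteins need a Jun partner, whereas Jun proteins can also pair with each other. Fos, Fosb, Jun and Junb are classical immediate early genes, transcribed within minutes of serum addition, while Fosl1 and Fosl2 encode the Fos-related antigens Fra-1 and Fra-2, which accumulate later and last longer in growing cells. Jund is held at a high level in many resting cells. Atf3 belongs to the related ATF/CREB branch, pairs with Jun proteins and is a well known stress response gene. In fibroblasts AP-1 is a main regulator of growth, matrix turnover and enhancer activity.

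Promoters are shown for Fos, Fosb, Junb and Atf3 because these genes share a short motif, and for Jun because it holds another. The RefSeq promoter table (build GRCm38.p6) had an entry for 7 of the 8 members, all but Fosl1. In the 250 bases before each annotated start, 4 motifs were searched on both strands. The first was TGANTCA, with any base at N, a looser pattern than the TPA response element that it covers. The others were TGACGTCA (the cyclic AMP response element), TGACATCA (the variant known from Jun) and TGACG. The last is the core of the cyclic AMP response element and also lies within the full one. Of the 32851 promoters in the table, 6.75% held TGANTCA, 1.55% TGACGTCA, 2.93% TGACATCA and 17.8% TGACG. Among the 7 member promoters, 4 held TGACG, 1 held TGACATCA, and 0 held either of the others in this window. The 120 bases that end just before the start are printed 5′ to 3′ on the gene's strand, with the motif in capitals. They lie at chr12:85473770-85473889 on the plus strand for Fos, and on the minus strand at chr7:19310046-19310165 for Fosb, chr8:84978749-84978868 for Junb, chr1:191183334-191183453 for Atf3 and chr4:95052223-95052342 for Jun.
Fos: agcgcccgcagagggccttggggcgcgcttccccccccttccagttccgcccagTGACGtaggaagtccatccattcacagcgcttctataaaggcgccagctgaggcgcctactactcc
Fosb: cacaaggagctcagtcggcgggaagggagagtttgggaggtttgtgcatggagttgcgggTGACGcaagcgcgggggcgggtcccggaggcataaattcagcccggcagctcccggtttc
Junb: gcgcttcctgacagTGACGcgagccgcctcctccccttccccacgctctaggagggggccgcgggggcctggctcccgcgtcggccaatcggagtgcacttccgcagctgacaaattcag
Atf3: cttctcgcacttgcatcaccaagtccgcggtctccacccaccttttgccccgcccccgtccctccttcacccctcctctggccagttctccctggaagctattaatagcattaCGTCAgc
Jun: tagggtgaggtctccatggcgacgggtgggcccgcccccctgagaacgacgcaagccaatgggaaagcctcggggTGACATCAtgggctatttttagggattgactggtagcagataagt

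The match in Fos began 66 bases before the start, that in Fosb 60, that in Junb 106 and that in Atf3 7, the last on the reverse strand as CGTCA. A second match in Fos began 129 bases before the start, outside the printed stretch. The TGACATCA of Jun began 45 bases before the start. These are matches of letters, and no binding was measured.

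The levels below are log2 intensities after quantile normalization, and a level of one probe set says nothing about that of another. A gene is said to rise or fall where limma's adjusted p over all 18193 genes was under 0.05. RNA came from whole populations, so fewer expressing cells and less RNA per cell cannot be told apart. The median of 11 fibroblast markers was 12.78 to 13.64 on the 10 arrays. Other markers moved with the most divided cohort. Of 7 keratinocyte markers 5 rose, and their summed intensity was 3592 to 3771 there, 189 to 220 in the control and 288 to 910 in the other cohorts, while Trp63, a defining factor of basal keratinocytes, read 4.70 and 4.84 there and 5.65 and 5.08 in the control. Of 6 neural markers 4 rose and 1 fell (summed intensity 4062 to 4825 against 1335 to 1485), and of the 11 fibroblast markers 6 fell (81336 to 94518 against 130669 to 134958). Of 8 macrophage and 6 endothelial markers 1 each rose and 1 each fell, and 0 of 5 skeletal muscle markers passed. On the Actb control probe sets the 3-prime end exceeded the 5-prime end, a measure of RNA integrity, by 0.49 and 0.50 in that cohort, 0.26 on both control arrays and 0.29 to 0.50 in the others. Their part in the results was not tested.

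Fosl1, which encodes Fra-1, was the member with the widest range of group means. It read 5.87 and 5.45 on the control arrays, 6.64 and 6.92 after 0 divisions, 7.59 and 7.85 after 1, 7.94 and 7.81 after 2, and 8.38 and 8.19 after 3 or more. Each cohort lay above the control on both arrays, the arrays of 1 and 2 divisions overlapped, and those of 3 or more lay above all others. Against the control Fosl1 rose by 2.06 ± 0.18 (SE; adjusted p = 0.00889) after 1 division, 2.22 ± 0.18 (adjusted p = 0.00237) after 2 and 2.62 ± 0.18 after 3 or more (6.16-fold; adjusted p = 0.00022, n = 2 per group, limma). The call after 1 division was lost without replicate 2 of that cohort (adjusted p = 0.0735) and with only the 4 compared arrays in the fit (adjusted p = 0.175), a fit in which 0 of the 18193 genes passed.

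After 0 divisions Fosl1 stood at 6.78 ± 0.20 against 5.66 ± 0.30 (SD, n = 2), a difference of 1.12 ± 0.18 (SE) that did not pass (adjusted p = 0.0561). With the replicate number as a block in the model it passed (adjusted p = 0.0185), as it did with the mean of both probe sets (0.032) and among the brighter genes alone (0.0471). The other probe set of Fosl1 showed a like course. It read 4.23 and 4.50 in the control, 5.37 and 5.36 after 0 divisions, 6.16 and 6.31 after 1, 6.67 and 6.30 after 2, and 7.0 and 6.93 after 3 or more. Its difference from the control was 1.00, 1.87, 2.12 and 2.60 in that order, against 1.12, 2.06, 2.22 and 2.62 for the tested one. Over all 45037 probe sets it passed after 1, 2 and 3 or more divisions (0.673%, 4.15% and 20.7% of all probe sets did) but not after 0 (adjusted p = 0.0611, where 0.122% did).

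**Figure D1:**
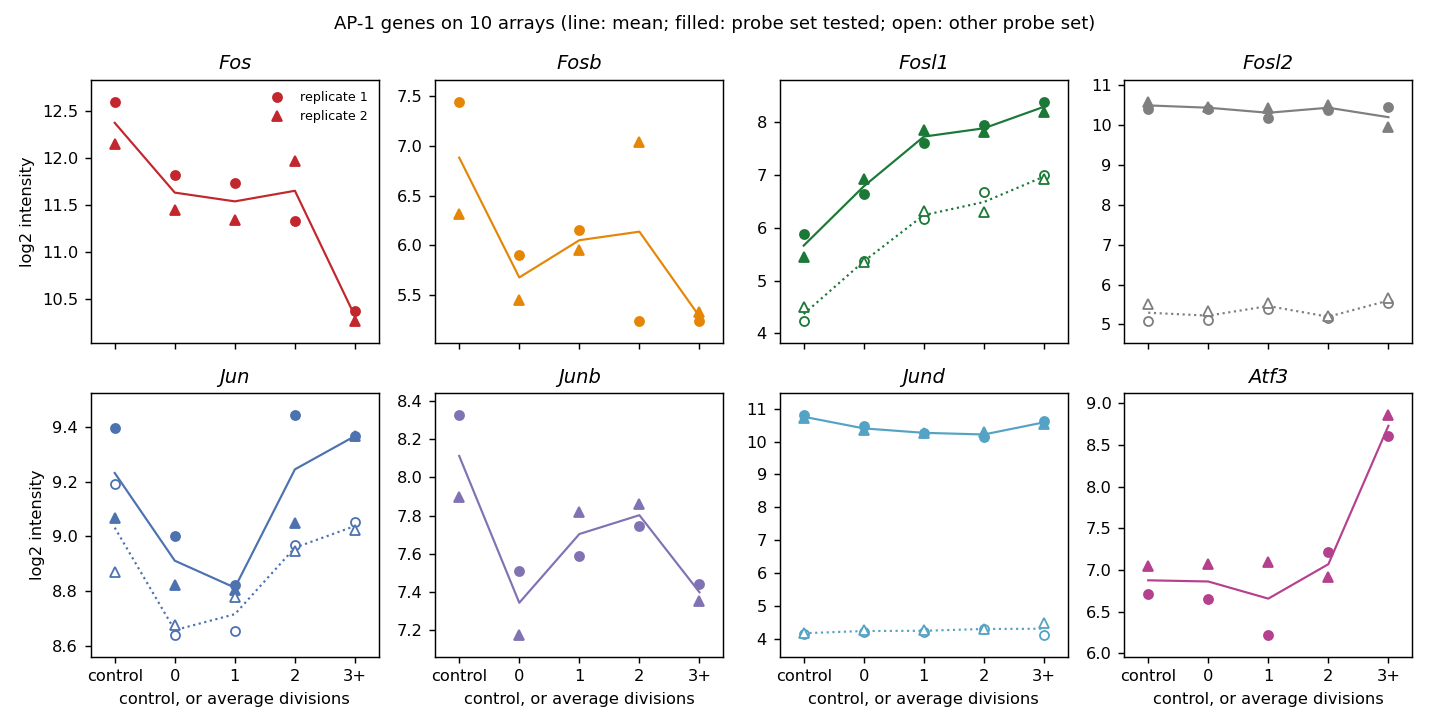
Log2 intensity (y axis, scaled separately for each gene) of the 8 AP-1 genes on the 10 arrays, by group (x axis: the control, then the average divisions of the induced cohorts). Circles and triangles are replicates 1 and 2, lines join the means of 2 arrays, and open symbols with dotted lines are second probe sets. Fosl1 climbs from 5.66 to 8.28 on its tested probe set and from 4.37 to 6.96 on the other, Fos drops from 12.37 to 10.31, and Atf3 leaves a band of 6.22 to 7.22 only in the most divided cohort, at 8.60 and 8.85.

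Fos, the founding member of the family, moved the other way. Its control arrays read 12.60 and 12.15, the brightest of its 10 values. The arrays read 11.82 and 11.44 after 0 divisions, 11.74 and 11.34 after 1, 11.33 and 11.97 after 2, and 10.37 and 10.26 after 3 or more. The first 3 cohorts overlapped one another, lay below both control arrays, and lay above both arrays of the last cohort. Against the control Fos fell by 2.06 ± 0.26 (SE, 4.17-fold lower; adjusted p = 0.00113) after 3 or more divisions. The differences after 0, 1 and 2 divisions were -0.74, -0.84 and -0.72 (each ± 0.26) and did not pass (adjusted p = 0.31, 0.187 and 0.156).

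Fosb, a close relative of Fos with the same kind of early response, was far more variable between arrays. It read 7.44 and 6.32 in the control, 5.90 and 5.45 after 0 divisions, 6.15 and 5.95 after 1, 5.24 and 7.04 after 2, and 5.24 and 5.33 after 3 or more. The control arrays differed by more than 1 and those of 2 divisions by 1.80, so the latter span nearly the whole range. After 3 or more divisions the difference from the control was -1.60 ± 0.56 (SE), which did not pass (adjusted p = 0.0703). Blocking on the replicate number brought it past the threshold (adjusted p = 0.0495), as did a fit with only the 4 compared arrays (0.043) and leaving out control replicate 2 (-2.16, adjusted p = 0.0497). Without control replicate 1 the difference was -1.03 (adjusted p = 0.318), and without replicate 1 or 2 of the cohort the adjusted p was 0.202 and 0.206. In the cohort of 2 divisions replicate 2 exceeded replicate 1 by 0.64 for Fos and 1.80 for Fosb, whereas Fos was lower on replicate 2 in each of the other groups. Of 23 other immediate early genes 10 were higher on replicate 2 in that cohort, with a median difference of -0.07.

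Fosl2, which encodes Fra-2, had the narrowest range of group means, 0.29. It read 10.39 and 10.58 in the control, 10.40 and 10.46 after 0 divisions, 10.18 and 10.42 after 1, 10.37 and 10.49 after 2, and 10.45 and 9.93 after 3 or more. All groups overlapped the control, and the lowest and the highest array were in the most divided cohort and the control. The difference between these 2 groups was -0.29 (95% interval -0.71 to 0.12; adjusted p = 0.284). Its second probe set ranged from 5.08 to 5.67 and gave 0.31 ± 0.16 (SE), with the opposite sign and no call over all probe sets (adjusted p = 0.238).

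Among the Jun family, Jun itself was close to its control level after 3 or more divisions. No dimer was measured, and Jun is among the partners that Fos proteins can use. It read 9.40 and 9.07 in the control, 9.0 and 8.82 after 0 divisions, 8.82 and 8.80 after 1, 9.44 and 9.05 after 2, and 9.37 on both arrays after 3 or more. The cohorts of 0 and 1 division lay below both control arrays, and those of 2 and of 3 or more overlapped the control. No difference from the control passed, and that of 3 or more divisions was 0.14 (95% interval -0.25 to 0.52). Against 0 divisions it was 0.46 ± 0.17 (SE; adjusted p = 0.115), which passed with the replicate block (adjusted p = 0.0357). The second probe set of Jun was lowest after 0 divisions instead of 1 and did not pass in that comparison (0.38 ± 0.13, SE; adjusted p = 0.119, or 0.0831 with the block). Its means ran from 9.03 ± 0.23 in the control to 8.66 ± 0.02, 8.71 ± 0.09, 8.96 ± 0.02 and 9.04 ± 0.02 (SD, n = 2).

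Junb, a weaker activator than Jun that can oppose it, was brightest in the control. It read 8.32 and 7.90 there, 7.51 and 7.18 after 0 divisions, 7.59 and 7.82 after 1, 7.74 and 7.86 after 2, and 7.44 and 7.35 after 3 or more. Every induced array lay below both control arrays. After 3 or more divisions Junb fell by 0.71 ± 0.18 (SE; adjusted p = 0.0205). After 0 divisions the difference was -0.77 ± 0.18, nearly the same size, and did not pass (adjusted p = 0.136, or 0.0528 with the block). Its unadjusted p in limma's test, 0.00283, was below that after 3 or more divisions, 0.00429. The adjustment was made within each comparison, and 0.297% of all genes passed after 0 divisions against 27.6% after 3 or more. Compared directly, Junb differed by 0.06 ± 0.18 (SE; adjusted p = 0.888) between these cohorts, so its fall was not particular to the most divided one. The call after 3 or more divisions was lost without control replicate 1 (-0.50, adjusted p = 0.115), without replicate 1 or 2 of the cohort (0.066 and 0.114) and with only the 4 compared arrays in the fit (0.053).

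Jund, the member typical of resting cells, moved least between replicates. It read 10.80 and 10.71 in the control, 10.46 and 10.34 after 0 divisions, 10.27 and 10.26 after 1, 10.13 and 10.30 after 2, and 10.62 and 10.55 after 3 or more. Its lowest mean was therefore in the cohort of 2 divisions, and the cohort of 3 or more lay between the control and the rest. The 4 arrays for which the processing notes name RMA, those of the control and the most divided cohort, lay above the other 6. In this course division and set of arrays cannot be told apart. Jund fell after 2 divisions, by 0.54 ± 0.11 (SE; adjusted p = 0.0316), and the difference after 1 was -0.49 (adjusted p = 0.0911, or 0.0419 with the replicate block). That call was lost when any 1 of the 4 compared arrays was left out (adjusted p = 0.133 without control replicate 1, 0.0933 without control replicate 2, 0.185 without replicate 1 of the cohort and 0.0591 without replicate 2), with only those arrays in the fit (0.153, where 0.473% of all genes passed), and with the mean of both probe sets (0.273). The second probe set of Jund was dim, 4.13 to 4.50, and passed in 0 comparisons.

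Atf3, the stress-responsive partner of Jun proteins, separated the most divided cohort from the rest. It read 6.71 and 7.04 in the control, 6.65 and 7.07 after 0 divisions, 6.22 and 7.09 after 1, 7.22 and 6.92 after 2, and 8.60 and 8.85 after 3 or more. The first 4 groups overlapped, and the last lay above all of them. Atf3 rose by 1.85 ± 0.29 (SE, 3.61-fold; adjusted p = 0.00272) against the control, 1.87 ± 0.29 (adjusted p = 0.008) against 0 divisions and 1.66 ± 0.29 (adjusted p = 0.0286) against 2. The call against 2 divisions was lost when any compared array was left out, and that against 0 without some of them, as given below. In the cohorts of 0, 1 and 2 divisions the differences from the control were -0.01, -0.22 and 0.19, with 95% intervals from -0.90 to 0.87 over the 3 of them.

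**Figure D2:**
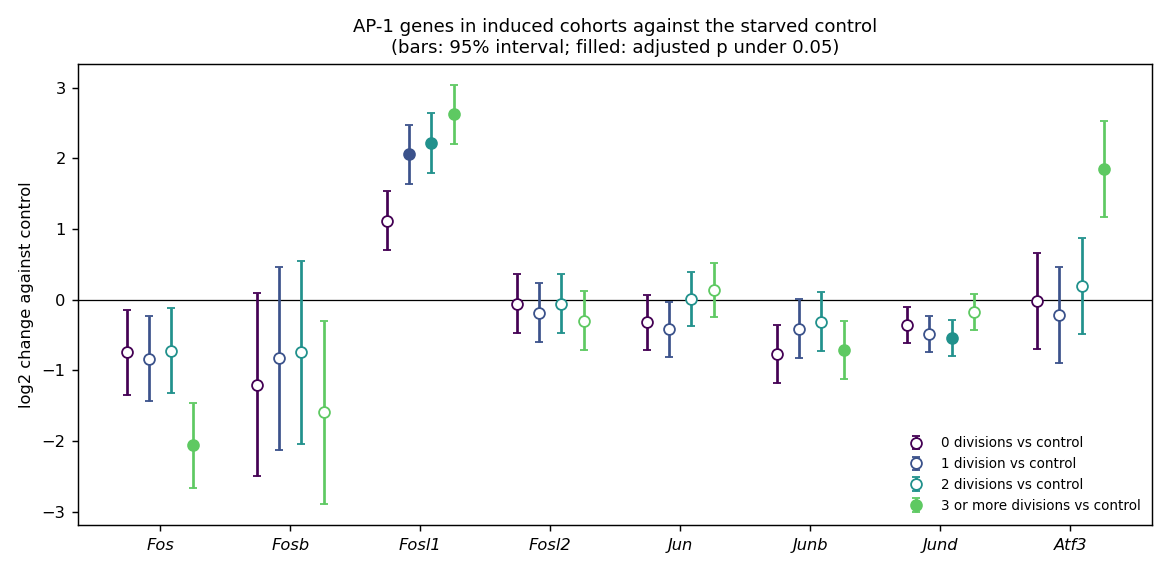
Log2 change (y axis) of each AP-1 gene against the starved control in the cohorts of 0, 1, 2, and 3 or more divisions, in that order from left to right for each gene. Bars are unadjusted 95% intervals from limma with 2 arrays per group, and filled points had an adjusted p under 0.05. Fosl1 is filled in 3 cohorts, Fos, Junb and Atf3 after 3 or more divisions, and Jund after 2. The unfilled point of Junb after 0 divisions, at -0.77, lies close to its filled point, at -0.71.

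Read as a group, the members moved in opposite directions. After 3 or more divisions 4 of 8 passed, Fosl1 and Atf3 higher and Fos and Junb lower, where 27.6% of all genes passed (15.9% higher and 11.7% lower). With the block Fosb passed too, 5 of 8 where 37.8% of all genes did. The median change of the 8 members was -0.23, against 0.02 over all genes. After 2 divisions 2 of 8 passed (Fosl1 higher, Jund lower), where 6.12% of all genes did, 4.07% higher and 2.06% lower. After 1 division Fosl1 alone passed (1.24% of all genes), or Fosl1 and Jund with the block (7.02%). After 0 divisions 0 of 8 passed in limma's test at 0.297% of all genes, 4 had an unadjusted p under 0.05 (11.7% of all genes), and 1 passed with the block (3.25%). In that cohort the arrays of 5 members, Fos, Fosb, Jun, Junb and Jund, lay wholly below the control and those of Fosl1 wholly above it. Such separation was found for 19.3% and 21.4% of all genes. These 4 comparisons share the same 2 control arrays.

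Comparing induced cells with one another leaves out the serum and doxycycline difference. After 3 or more against 0 divisions 3 of 8 members passed (13.9% of all genes, 8.46% higher and 5.44% lower; 4 of 8 and 25.6% with the block), with Fosl1 at 1.5 ± 0.18 (SE; adjusted p = 0.00371), Atf3 at 1.87 ± 0.29 and Fos at -1.32 ± 0.26 (adjusted p = 0.0166). Fosl1 kept its call when any 1 compared array was left out. The calls of Fos and Atf3 were lost without replicate 2 of the most divided cohort (differences of -1.26 and 1.74). They were also lost without replicate 1 of the cohort of 0 divisions (-1.13 and 1.65). That of Fos was lost without replicate 1 of the most divided cohort too (-1.37). Against 2 divisions Atf3 rose and Fos fell (-1.34 ± 0.26, SE; adjusted p = 0.0324), 2 of 8 members where 5.97% of all genes passed, 3.46% higher and 2.52% lower. Both of these calls were lost when any 1 of the 4 compared arrays was left out, with adjusted p from 0.0538 to 0.231, and with a floor of 16 on the intensities (0.069 for Fos and 0.0619 for Atf3, where 3.39% of all genes passed). RMA is named in the submitters' processing notes for 4 arrays, those of the control and the most divided cohort, so in any comparison of these arrays with the other 6 the condition and the set of arrays cannot be told apart.

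Within the 6 arrays of 0, 1 and 2 divisions, the doublings themselves were the labelled difference. Fosl1 was higher after 2 than after 0 divisions by 1.10 ± 0.18 (SE, 2.14-fold), with both arrays above, but did not pass (adjusted p = 0.149), where 0.055% of all genes passed. With the block it did (adjusted p = 0.0365; 1.13% of all genes). At an unadjusted p below 0.05 stood 2 of the 8 members and 7.76% of all genes. The slope of Fosl1 was 0.55 ± 0.11 per division (SE; adjusted p = 0.226, and 0.0436 with the block, where 2.17% of all genes passed). By limma 0 genes had a slope at the adjusted threshold, and 1561, 8.58%, at an unadjusted p below 0.05. Junb had a slope of 0.23 ± 0.08, Jun 0.17 ± 0.10 and Jund -0.09 ± 0.06, none of which passed in either fit. Fos and Fosl2 had slopes of 0.01 (95% interval -0.29 to 0.31) and 0.00 (-0.16 to 0.16).

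The genes with the most similar profile were found by the root mean square difference over the 10 arrays, each gene centred on its own mean, among 9089 genes brighter than the median gene. Only the 4 members whose group means ranged over at least 1 were matched. Fos was nearest to Gng11 (0.141), a G protein gamma subunit gene, Gpr153 (0.165) and Plat, the tissue plasminogen activator gene (0.185), where its median difference from all candidates was 0.74. The nearest to Fosl1 were Mgst3, a microsomal glutathione transferase gene (0.219), Cd109 (0.223) and C730049O14Rik (0.265). Atf3 was nearest to Psph, the last enzyme of serine synthesis (0.224), the adenylate kinase gene Ak4 (0.293) and Tlcd3a (0.298). The nearest to Fosb lay farther away, with St3gal1 at 0.382, Pxylp1 at 0.392 and the chemokine gene Cxcl12 at 0.397. Among the members themselves the closest pair was Jun and Jund (0.253), and Fos was nearest to Fosb (0.424). Genes that move little lie close by this measure whatever their courses. The group means of Jun ranged over only 0.56 and those of Jund over 0.54. Jun was highest after 3 or more divisions and Jund in the control, so their closeness does not show a shared course.

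Other genes of the pathway moved in both directions after 3 or more divisions, where 15.9% of all genes rose and 11.7% fell, with a median of 0.02. Of 22 measured bZIP partners and AP-1 inhibitors 1 rose and 5 fell, with a median of -0.11. Nfe2l2, the oxidative stress regulator NRF2, rose by 1.01. Jdp2, which encodes a Jun dimerization partner that represses AP-1 sites, fell by 1.48 ± 0.29 (SE, from 10.59 to 9.10). Ddit3, the stress factor CHOP, fell by 1.45. Of 24 upstream kinases and factors 1 rose and 3 fell (median -0.12), with Map2k3, a p38 kinase kinase, at 1.20, Braf, the kinase at the head of the ERK cascade, at -0.88, and Srf, the serum response factor that acts on the Fos promoter, at -0.69 ± 0.11 (from 9.17 to 8.48). Of 17 negative regulators 1 rose, the ERK phosphatase gene Dusp6 (0.81), and 3 fell (median 0.12), including Zfp36 (-1.31), whose product destabilizes early transcripts such as Fos, and Itch (-0.79), a ubiquitin ligase gene for Jun proteins. With the block, where 20.4% of all genes rose and 17.3% fell, 3 negative regulators rose and 4 fell, 1 bZIP partner rose and 8 fell, and 2 upstream genes rose and 4 fell.

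Other serum-induced early genes did not share one direction either. Of 23 measured 3 rose and 4 fell, where 15.9% and 11.7% of all genes did, and with the block 5 rose and 7 fell, where 20.4% and 17.3% did. Their median was -0.09. Myc rose by 3.06 and Klf10, a TGF-beta inducible factor, by 2.24, while Ier5 changed by -1.24 and the kinase gene Sgk1 by -0.84. Myc is one of the transgenes, and how its probe set relates to the transgene was not given in the sources used here.

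Of 34 measured genes known as AP-1 targets 9 rose and 4 fell after 3 or more divisions, where 15.9% of all genes rose and 11.7% fell. With the block 12 rose and 5 fell (20.4% and 17.3% of all genes). The share of falls was near that of all genes in the unblocked fit, and the median of the list was 0.34, against 0.02 over all genes. Many of them have other regulators as well. The metallothionein gene Mt2 rose by 3.0 ± 0.16 (SE) and the adhesion receptor gene Cd44, read at 9.46 and 10.37 in the control and 12.48 and 12.28 in the cohort, by 2.46 ± 0.36. Vegfc, a lymphatic growth factor gene, changed by -3.67 ± 0.68 and the collagen crosslinking enzyme gene Lox by -1.77 ± 0.20. Mmp13, the collagenase gene with a classical AP-1 site in its promoter, was the one listed gene that passed between 2 and 0 divisions. It read 3.71 and 4.92 in the control, 3.60 and 3.86 after 0 divisions, 4.29 and 4.33 after 1, 7.29 and 6.97 after 2, and 5.38 and 4.92 after 3 or more. It was thus highest after 2 divisions, with a rise of 3.40 ± 0.36 (SE; adjusted p = 0.0366) over 0 divisions.

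**Figure D3:**
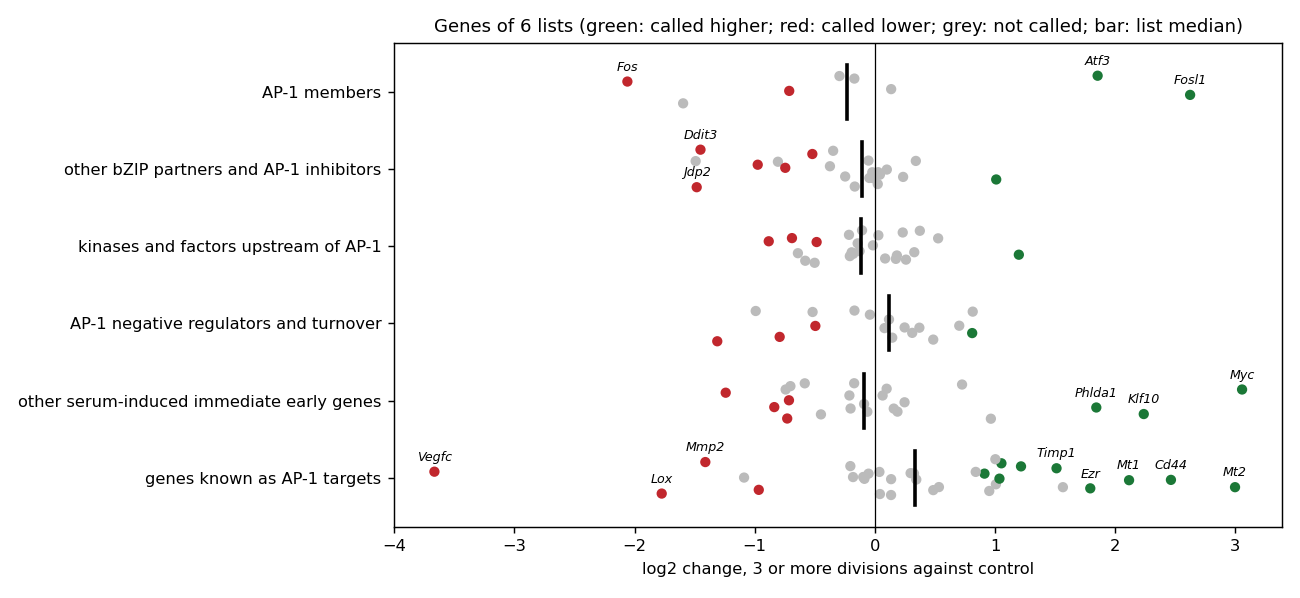
Log2 change after 3 or more divisions against the control (x axis) for the measured genes of 6 lists (rows; vertical position within a row has no meaning). Each point is 1 gene with 2 arrays per group, coloured green where it rose, red where it fell and grey where the adjusted p was 0.05 or more, and black bars are list medians. The AP-1 members lie on both sides of 0, with Fosl1 at 2.62 and Fos at -2.06, and the median of the listed targets, 0.34, lies right of 0.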

How the data were processed

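The authors deposited 1 table of linear intensity for 45101 probe sets on 10 arrays. RMA, with no version, is listed in the submitters' processing notes for 4 arrays, the control and the most divided cohort. The tool behind the other 6 was not given in the sources used here. Array medians ran from 31.4 to 33.95. Values were floored at 1 (0 moved), put on the log2 scale and quantile normalized. The 34945 probe sets with 1 gene symbol were named, and the one with the highest mean stood for its gene, giving 18193 genes. A model with 5 group means was fitted to all arrays with limma 3.58.1 in R 4.3.3 (lmFit, eBayes, 5 residual degrees of freedom), with Benjamini-Hochberg adjustment over all genes, two-sided. The slope over 0 to 2 divisions used 6 arrays. Second probe sets were tested in the same model over all probe sets other than controls. No detection calls were given. Differences of dim probe sets may be compressed, which was not tested. The method was tested on simulated data for 3 or more divisions against the control. It called 67.2% of true log2 changes of size 1, 88.1% of size 2 and 100% of size 3, with 13 false calls. The simulated arrays were independent, so the pairing of replicates described below was not part of that test.

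Only the control and the most divided cohort carry biological replicates per the labels, and no separate cultures are stated, so the p-values measure the spread between these samples, which may be technical. Replicate numbers were checked as a pairing on genes brighter than the median gene. Differences between replicates 2 and 1 correlated across genes between groups, from r = 0.477 to r = 0.872 over the 10 pairs. The numbers therefore count as a pairing, read from the data and not from the labels. The planned fit has no block, and its blocked counterpart appears where a call changes.

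All members are named. Named outside them were the 2 largest called rises and falls of each list after 3 or more divisions against the control and after 2 against 0, and the 3 most similar profiles. The members and lists were chosen with earlier results of these data known. Alternatives were no quantile normalization, median centring, a floor of 16, genes above the median level, the mean of probe sets, all probe sets tested, the replicate block, a trend in the spread, the compared groups only, and leaving out each array. Precision is limited by 2 arrays per group.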

Additional observations from a re-analysis of the deposited data

How the results depend on the processing

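The count of members that passed held within 1.5 times under no quantile normalization, median centring, a trend in the spread and testing all probe sets, in all 8 comparisons. With the replicate number as a block it was 1 rather than 0 after 0 divisions, for 2 against 0 divisions and for the slope, each time Fosl1, and 2 rather than 1 after 1 division. Fosl1 also passed after 0 divisions among genes above the median level and with the mean of probe sets (1 in both). Of the genes tested in those fits 0.967% and 0.324% passed. With the mean of probe sets, and with only the compared groups in the fit, 1 rather than 2 passed after 2 divisions, and with only the compared groups 0 rather than 1 passed after 1 division. In those fits of the compared groups 0.473% of all genes passed after 2 divisions and 0 of 18193 after 1. With the mean of probe sets 6.41% of all genes passed after 2 divisions. With a floor of 16, 0 rather than 2 passed for 3 or more against 2 divisions, where 3.39% of all genes did. Leaving out 1 compared array left 1 array in that group, and the share of all genes that passed in those fits is not given here. Calls of members were lost in such fits after 1, 2, and 3 or more divisions against the control. They were also lost for 3 or more against 0 divisions, and always for 3 or more against 2. These losses cannot be told apart from a general change in how many genes passed. The cause was not tested beyond the fewer arrays or changed values of each setting. Of 272 single-member values with an array left out, 21 lost a call and 1 gained one. The replicate block turned 6 of 64 values into calls and changed no other call of a member. No called value changed sign under any of these alternatives.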

Other observations

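Early genes that read highest in the middle cohorts were picked after their values were seen. Egr3, a zinc finger early gene, read 7.09 and 7.03 in the control, 8.56 and 8.50 after 0 divisions, 9.47 and 8.48 after 1, 9.45 and 8.54 after 2, and 7.93 and 7.65 after 3 or more. Dusp6 read 6.82 and 7.43, then 7.80 and 8.12, 8.35 and 8.63, 8.83 and 8.97, and 7.97 and 7.91 in the same order. In both genes, as in Mmp13, the most divided cohort lay below that of 2 on both arrays, whereas Fosl1 lay above it. Such separation was common, with 24.6% of all genes wholly lower in the most divided cohort and 30.8% wholly higher. RMA is named in the processing notes for the most divided cohort and not for that of 2, so division and set of arrays cannot be told apart.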
